A study of Mus musculus with 8 samples.

Results

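Cell cycle and proliferation genes were followed in pancreatic islets of mice of the NOD/ShiLtJ strain, which is prone to autoimmune diabetes. The genes were a list of 40 symbols spanning DNA replication, deoxynucleotide supply, the step from G1 to S phase, mitotic entry, chromosome segregation, the spindle, the anaphase-promoting complex and the antigen Ki-67. Of the 40, 39 were among the 14126 genes of the deposited table, all 39 passed the filter on low values (4 or more libraries at 1 or above), and Aurkb was not analysed here. The rows were found by symbol, and the list itself was drawn up with earlier results of these data known.

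Bulk RNA sequencing compared 4 libraries labelled KO, from mice of genotype IRE1[alpha][beta]-/-, with 4 libraries labelled WT, from mice of genotype IRE1[alpha]fl/fl. All mice were 7 weeks old, and the protocol on every library gives tamoxifen at 10 mg/ml, injected into the peritoneum over 5 days, to switch on a Cre recombinase. The driver of that Cre is not given in the sources used here, so the controls are floxed mice that share the drug but may or may not carry the recombinase. The series' title places the work before immune infiltration of the islet, and the question addressed by its design was how islet transcription differs between the genotypes at this age. Islets were freed by enzyme digestion, separated by density and hand-picked, so every library holds all the cell types of an islet and some of its surroundings.

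A cell that divides passes from G1 into S phase, where the genome is copied, and then through G2 into mitosis. D-type cyclins with their kinases inactivate the retinoblastoma proteins, which frees E2F factors to switch on replication genes. Genes of G2 and mitosis come on later, through B-MYB and FOXM1 acting with the MuvB complex at promoters that carry CHR elements and CCAAT boxes. Adult beta cells divide rarely, and cyclin D2 is the D cyclin best known for beta cell growth in mice. Endothelial cells, stromal cells and leukocytes within the islet also divide and express the same genes.

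The targeted gene was read first. Ern1, which encodes the endoplasmic reticulum stress sensor IRE1α, had values of 7223, 7390, 6922 and 7216 in the libraries labelled KO, against 5549, 5164, 4622 and 4500 in the libraries labelled WT. Every library labelled KO was above every library labelled WT (log2 fold change 0.54 ± 0.08 SE, adjusted p = 0.00234, limma-trend). The total over the gene goes against the label if read as a loss of the transcript, and it does not separate deleted from retained exons, so it does not check the deletion. KO and WT below therefore mean the libraries so labelled.

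Values are the authors' normalized counts, rounded to whole numbers, and fold changes are on the log2(value + 1) scale of KO over WT. They summed to between 32024139 and 34858983 per library. These totals follow normalization, so the sequencing depth is unknown. Libraries numbered 3 and 4 stood apart from libraries numbered 1 and 2 under both labels. The summed value of 16 immediate early genes, which respond quickly to stimulation or handling, was 189879 and 191168 in KO libraries 3 and 4, against 27637 and 21826 in KO libraries 1 and 2. For WT, libraries 3 and 4 had sums of 343670 and 376676, against 17871 and 11038 for libraries 1 and 2. No label says what the numbers mark, so the contrast of KO with WT is given over all 8 libraries and within each set.

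The promoters show what many of these genes share besides their names. Promoter windows of 250 bases before to 50 after the start were found in RefSeq (GRCm38.p6) for 32 of the 40 genes. They were searched on both strands for 3 motifs: CHR as TTTGAA or TTCGAA, the CCAAT box as CCAAT, and the E2F element as either TTCGCGC or else TTGGCGC, and likewise TTCCCGC or else TTGCCGC. Letters of different motifs may overlap. CHR was found in 56.2% of the 32 windows and CCAAT in 84.4%, against 19.4% and 37.9% of all 27025 RefSeq windows. The E2F letters were in 34.4% of the 32 windows, against 9.69% of all windows and 16.8% of the windows of tested genes. Among 19 windows of mitotic and chromosome genes, 15 held both CHR and CCAAT and 3 held the E2F letters. Among 13 windows of replication, nucleotide and G1 genes, 3 held both CHR and CCAAT and 8 held the E2F letters. The 3 were the licensing and fork genes Mcm2, Mcm7 and Cdc45. Aurkb, Ccna2, Kif20a, Ccnd2, Mcm4, Foxm1, Ccnd1 and Tpx2 had no window. A match is a description of the letters and not a bound site.

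The 150 bases before the RefSeq start of 3 mitotic genes and 2 licensing genes are shown because they show the contrast between the classes of motif, against which the fold changes are set out further on. Capitals mark CHR, CCAAT and E2F letters on either strand, so ATTGG is a CCAAT box and TTCAAA a CHR read on the other strand, and in Mcm6 2 E2F elements overlap in each capital run of E2F letters. The windows lie at chr19:37376232-37376381 on the plus strand for Kif11, chr11:99024190-99024339 on the minus strand for Top2a, chr7:135716380-135716529 on the minus strand for Mki67, chr8:75109359-75109508 on the plus strand for Mcm5 and chr1:128359706-128359855 on the minus strand for Mcm6.
Kif11: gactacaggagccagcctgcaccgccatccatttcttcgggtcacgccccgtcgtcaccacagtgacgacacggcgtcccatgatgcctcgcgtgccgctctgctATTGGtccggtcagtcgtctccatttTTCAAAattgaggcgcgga
Top2a: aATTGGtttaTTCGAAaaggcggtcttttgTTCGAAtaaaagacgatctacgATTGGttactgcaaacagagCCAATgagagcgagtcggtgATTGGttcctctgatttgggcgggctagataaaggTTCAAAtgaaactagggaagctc
Mki67: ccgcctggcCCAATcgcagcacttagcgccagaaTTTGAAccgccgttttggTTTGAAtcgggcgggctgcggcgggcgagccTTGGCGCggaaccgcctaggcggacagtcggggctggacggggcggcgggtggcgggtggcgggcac
Mcm5: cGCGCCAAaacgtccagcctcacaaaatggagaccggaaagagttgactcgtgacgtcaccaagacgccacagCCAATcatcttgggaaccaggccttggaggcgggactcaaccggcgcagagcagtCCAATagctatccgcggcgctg
Mcm6: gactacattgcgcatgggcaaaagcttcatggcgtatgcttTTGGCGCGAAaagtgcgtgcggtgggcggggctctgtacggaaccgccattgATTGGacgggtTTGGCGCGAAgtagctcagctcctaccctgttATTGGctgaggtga

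Over all 8 libraries, few of the cell cycle genes separated the labels. Ccnd1, the cyclin D1 gene, was the only member of the 39 to pass the test as higher, a share of 2.56% where 11.1% of all genes tested passed. No member passed as lower, where 9.81% of all genes did (limma-trend, adjusted p under 0.05). With the replicate number as a block, E2f1 passed as lower (adjusted p = 0.0487), and with the library set as a term E2f1 and Pcna did (0.0242 and 0.039). At an unadjusted p under 0.05, Ccnd1 was higher and E2f1 lower, against 18.3% and 16.7% of all genes. In the authors' deposited table, 1 member had an FDR under 0.05 and was higher, Ccnd1, against 16.2% of genes, and 2 were lower, E2f1 and Pcna, against 13.1%. The median log2 fold change of the 39 genes was -0.12, with 13 above 0 and 26 below. That median rests on WT library 2. Without it the median was 0.14, with 30 genes above 0 and 9 below, and without WT library 3 it was -0.27, with 1 above and 38 below.

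The fold changes within the library sets had opposite signs. In libraries 3 and 4, 35 of 39 genes had a log2 fold change above 0, where 52.3% of all genes did, and the median was 0.53. In libraries 1 and 2, 36 of 39 had a log2 fold change below 0, where 49.6% of all genes did, and the median was -0.74. In libraries 3 and 4 both KO libraries lay above both WT libraries for 25 members (34.5% of all genes) and below for 3, E2f1, Mcm4 and Pcna (31.4%), and in libraries 1 and 2 they lay below for 29 (33.5%). For 20 genes both KO libraries lay above both WT libraries in set 3 and 4 and below both in set 1 and 2, which was so for 3.46% of all genes tested. These were Aurka, Bub1, Bub1b, Ccna2, Ccnb1, Ccnb2, Cdc20, Cenpa, Cenpe, Cenpf, Kif11, Kif20a, Kif23, Mki67, Nusap1, Prc1, Rrm2, Top2a, Tpx2 and Ube2c.

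**Figure D1:**
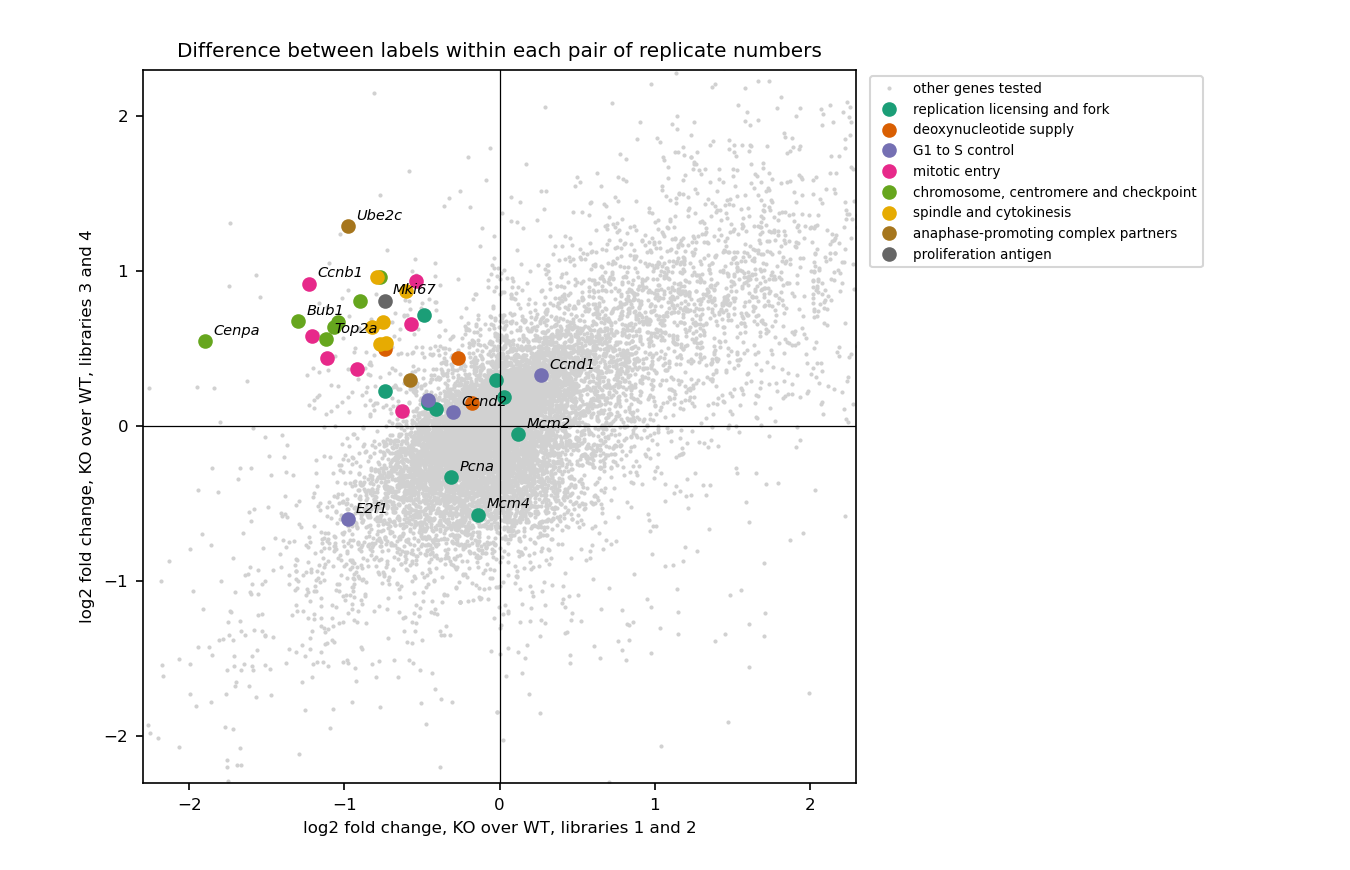
Each point is a gene, with its log2 fold change of KO over WT in libraries 3 and 4 on the vertical axis and in libraries 1 and 2 on the horizontal axis; coloured points are the 39 cell cycle genes by role and grey points the other genes tested, some of which lie beyond the axes. Of the 39 genes, 33 sit at the upper left, above 0 in libraries 3 and 4 and below 0 in libraries 1 and 2, where 16.2% of all genes tested lie; Ccnd1 and Mcm7 lie to the upper right, E2f1, Pcna and Mcm4 to the lower left and Mcm2 to the lower right.

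In libraries 3 and 4, 10 members passed as higher in KO, against a background of 11.4%, and 2 passed as lower, against 11.4%. The 10 were Ccna2, Ccnb1, Ccnd1, Cenpe, Cenpf, Kif11, Mki67, Prc1, Tpx2 and Ube2c, and the 2 were Mcm4 and Pcna. In libraries 1 and 2, 10 members passed as lower, against a background of 10.8%, and 0 as higher, against 12.2%. The 10 were Aurka, Bub1, Bub1b, Ccnb1, Ccnb2, Cdk1, Cenpa, Cenpe, E2f1 and Top2a. Quantile normalization gave 21 members lower there, where it gave 11.4% of all genes. At an unadjusted p under 0.05, 1 member was higher there, Ccnd1 (background 19.5%), and 22 were lower (18.8%). With the spread pooled over all 8 libraries, a choice made after seeing the data, libraries 3 and 4 gave 7 higher (background 9.68%) and libraries 1 and 2 gave 14 lower (13.6%). With 1 library of a set left out, its partner was assumed to vary like the other label, and most calls over all genes ended as well. In libraries 3 and 4, 2 members passed as higher without WT library 4, with 1061 genes higher and 800 lower in all, and 0 passed without WT library 3, with 536 and 390 in all. Without KO library 3 or KO library 4, 0 members passed, with 1 gene higher and 0 lower in all. In libraries 1 and 2, 0 members passed in these fits, with 111 genes higher and 78 lower in all without KO library 2 and 0 without KO library 1, WT library 1 or WT library 2. The member medians stayed between 0.33 and 0.67 in libraries 3 and 4 and between -1.04 and -0.42 in libraries 1 and 2.

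The difference between the within-set fold changes was tested as an interaction. No member passed it at an adjusted p under 0.05 in either direction, as did few genes at all, with 1 gene (0.00708%) positive and 13 (0.0921%) negative of 14121. At an unadjusted p under 0.05, 26 of 39 members were positive (66.7%), where 7.57% of all genes were, and 0 were negative, where 11.2% were. The median difference was 1.28 on the log2 scale, where all genes had a median of 0.01, and 36 of 39 differences were above 0, where 51.6% of all genes were. Ccnb1 came nearest to the threshold, with a difference of 2.15 ± 0.31 (SE, adjusted p = 0.0532), followed by Ube2c at 2.27 ± 0.41 (adjusted p = 0.0759), Top2a at 1.68 ± 0.32 (0.0912) and Cenpa at 2.45 ± 0.47 (0.0912). Without KO library 2 the differences were 2.22 for Ccnb1, 2.81 for Cenpa and 2.52 for Ube2c, and without WT library 1 that of Top2a was 2.04. Each such fit leaves 1 library of a label in a set. With 1 library left out in turn, the median difference of the members was lowest without WT library 2 (0.98) and highest without WT library 1 (1.59).

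**Figure D2:**
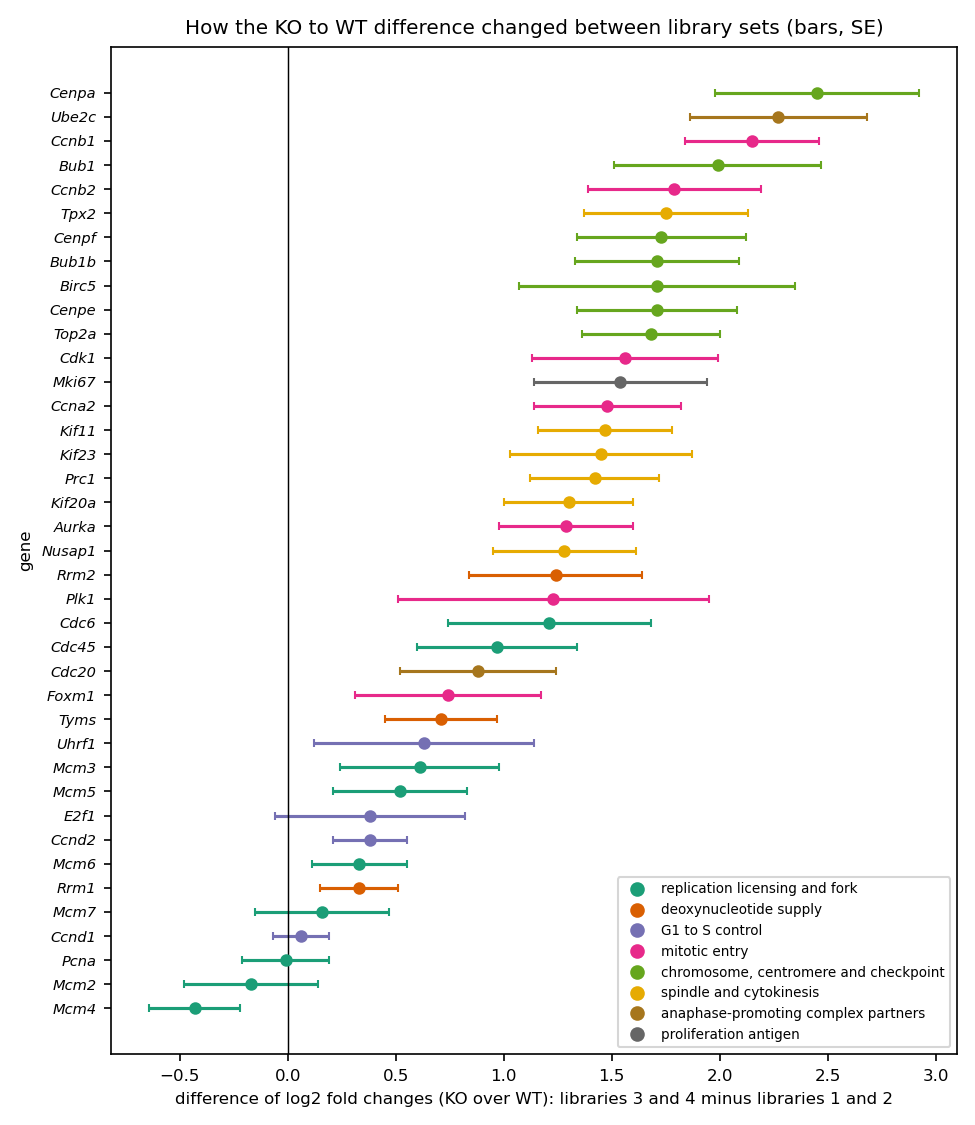
Points give, for each gene, the log2 fold change of KO over WT in libraries 3 and 4 minus that in libraries 1 and 2, with bars of 1 SE from the interaction fit over 8 libraries and colours for roles. Mitotic and chromosome genes fill the right side, up to 2.45 for Cenpa, and the 3 values below 0 belong to Pcna, Mcm2 and Mcm4, down to -0.43 for Mcm4.

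Medians differed by role. Genes of chromosome structure, the centromere and the checkpoint had the widest opposition among the groups of several genes, with a median of 0.67 for libraries 3 and 4, against -1.07 for libraries 1 and 2 (difference 1.71). Mitotic entry genes had medians of 0.58 and -0.92 (difference 1.48), and spindle and cytokinesis genes 0.65 and -0.76 (1.44). Replication licensing and fork genes had medians of 0.15 and -0.31, and a median difference of 0.33. All 6 spindle genes, 6 of 7 chromosome genes and 4 of 7 mitotic entry genes changed sides between the sets. Of the licensing and fork genes 0 of 9 did, where 3.46% of all genes tested did. Changing sides here means that KO and WT libraries did not overlap within either set. These groups were not tested against each other.

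The levels moved more among the WT libraries than among the KO libraries. The highest WT value over the lowest had a median of 2.65 over the 39 genes, and the same ratio among KO libraries had a median of 1.57; the WT ratio was the larger for 37 genes (94.9%, against 61.4% of all genes with no value of 0). WT library 2 held the highest of the 8 values for 35 of 39 genes, where it did for 13.4% of all genes tested. Without the D cyclins, the summed value of the other 37 genes was 10936, 10931, 13635 and 10897 in KO libraries 1 to 4, against 12649, 19224, 9694 and 10706 in WT libraries 1 to 4. KO library 3 was the highest of its label, and WT library 2 stood above every other library. Both KO libraries of set 1 and 2 lay below WT library 1 alone for 29 of 39 genes (42.3% of all genes). The median log2 fold change of that set kept its sign without WT library 2 but was smaller, at -0.42 against -0.74 with it.

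**Figure D3:**
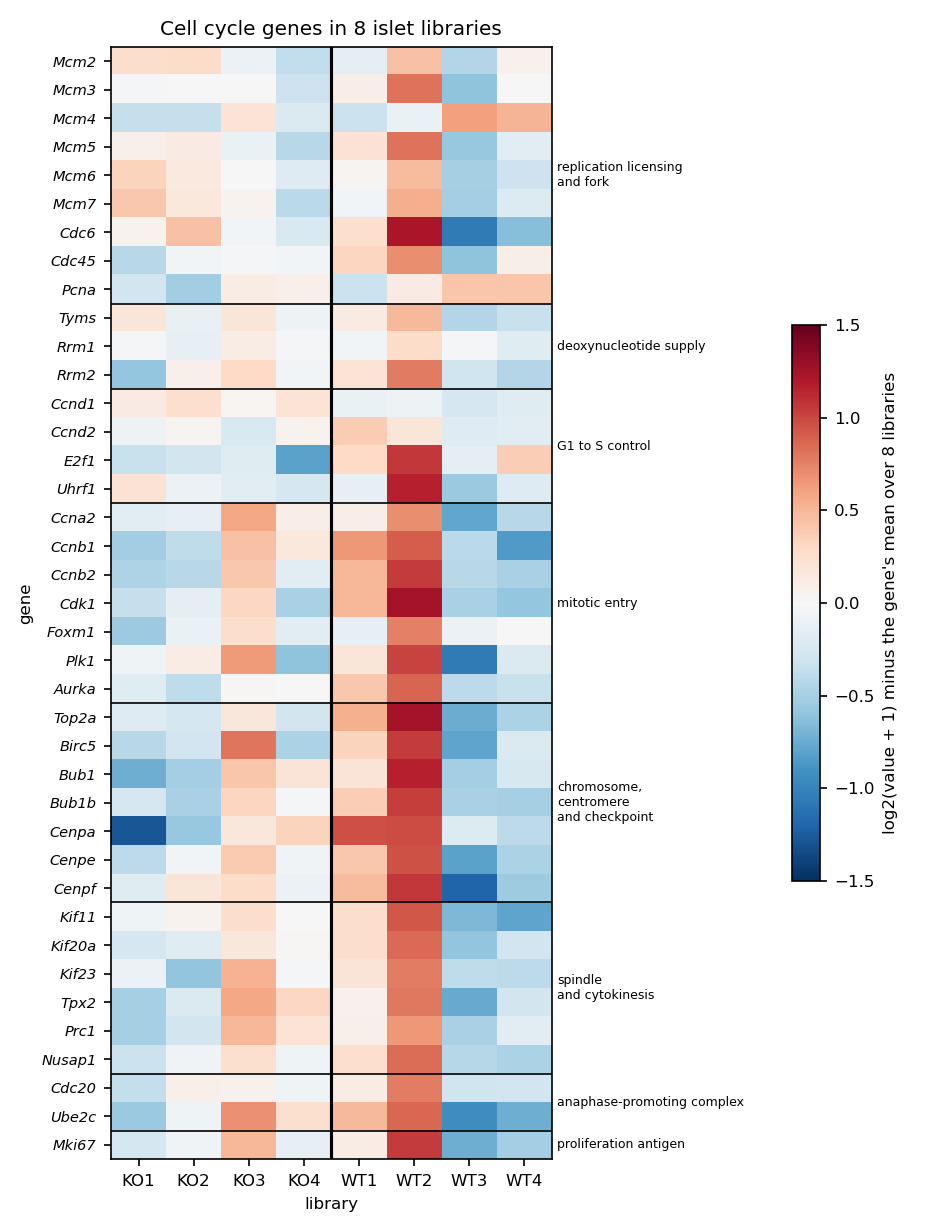
Rows are the 39 genes, ordered by role, and columns are the 4 KO libraries followed by the 4 WT libraries; colour gives log2(value + 1) minus the gene's mean over the 8 libraries, limited to 1.5 either way. WT library 2 is red in nearly all rows and WT libraries 3 and 4 are blue in most, while Mcm4 and Pcna are red in WT libraries 3 and 4.

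Within KO, libraries 3 and 4 against 1 and 2 gave 0 members higher, against a background of 4.97%, and 0 lower, against 2.8% (limma-trend, spread pooled over 8 libraries). At an unadjusted p under 0.05, KO gave 8 higher, Bub1, Ccnb1, Cenpa, Mcm4, Pcna, Prc1, Tpx2 and Ube2c (background 12.2%), and 1 lower, Mcm2 (11.9%). Both KO libraries 3 and 4 lay above both KO libraries 1 and 2 for 14 members (27.0% of all genes) and below for 6, Cdc6, Mcm2, Mcm5, Mcm6, Mcm7 and Uhrf1 (29.6%). Within WT, the same contrast gave 21 members lower, against a background of 7.87%. Mcm4 and Pcna rose there instead (log2 fold change 0.78 ± 0.15 and 0.51 ± 0.14, adjusted p = 0.00845 and 0.0378). These 2 were the only members above 0 in that contrast, where 6806 of 14121 genes tested were above 0. Both WT libraries 3 and 4 lay below both WT libraries 1 and 2 for 33 of 39 genes, where 32.0% of all genes did. The medians were 0.28 within KO and -0.94 within WT. With the label as a term, libraries 3 and 4 against 1 and 2 gave Mcm4 and Pcna higher (background 9.38%) and Mcm5 and Mcm6 lower (6.06%).

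**Figure D4:**
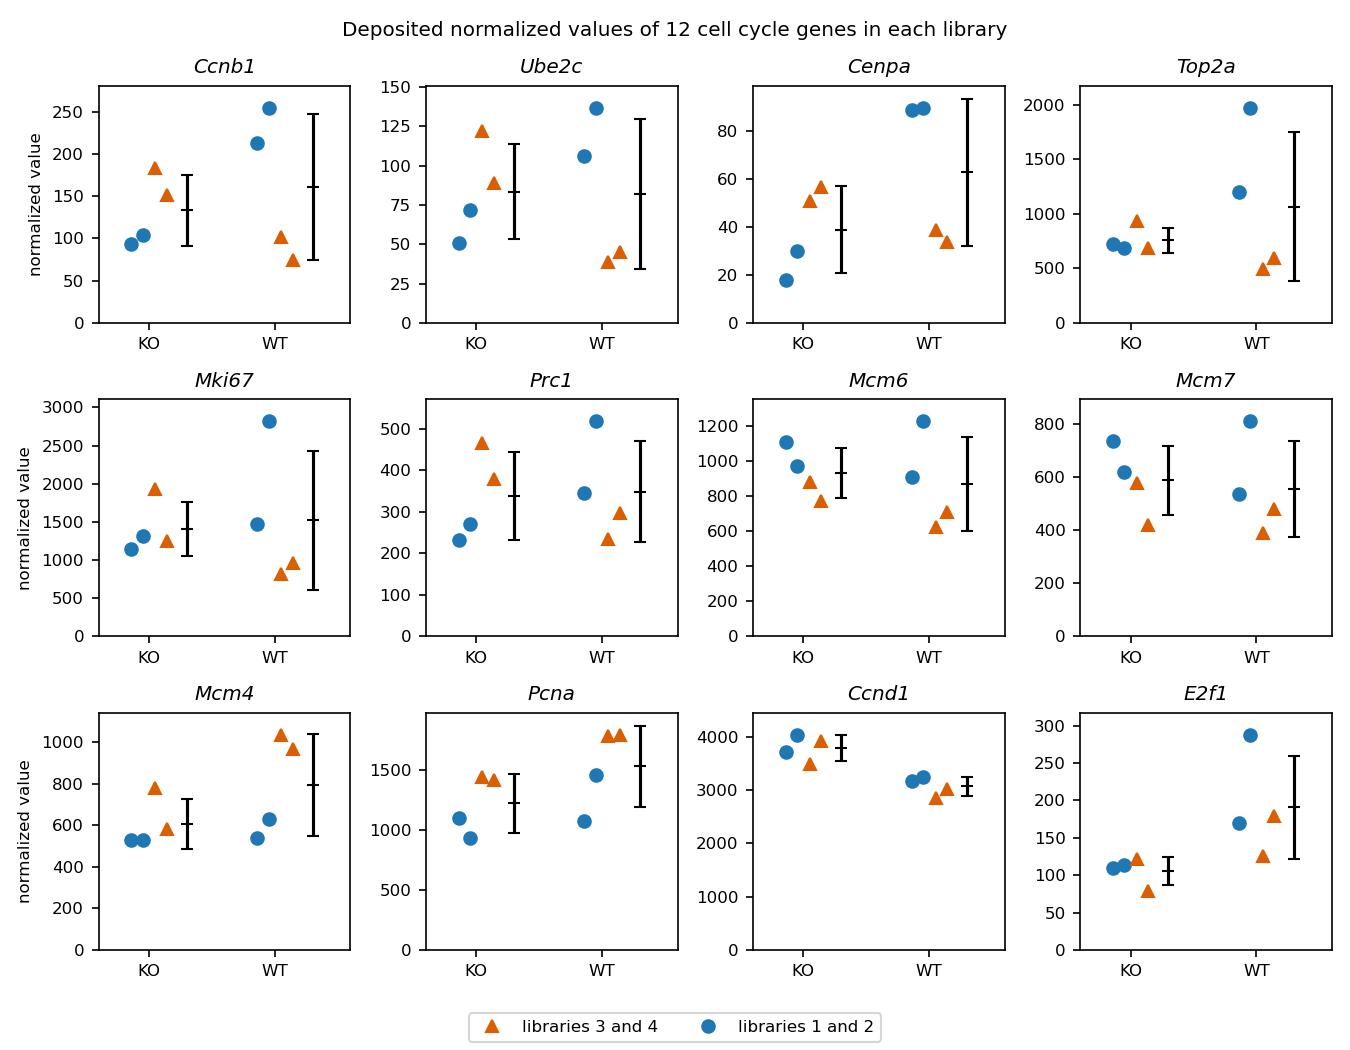
Normalized values of 12 genes in each library, KO left and WT right in each panel, on axes that start at 0; circles are libraries 1 and 2, triangles are libraries 3 and 4, and the black mark gives the mean of 4 libraries with its SD. Circles lie high in WT and low in KO for Ccnb1, Ube2c, Cenpa and Top2a, while Ccnd1 is higher and E2f1 lower in all 4 KO libraries.

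Replication begins with the MCM2-7 helicase, loaded at origins with the help of Cdc6 and activated with Cdc45, and PCNA is the sliding clamp of the polymerases. Mcm2 had values of 606, 609, 475 and 389 in KO, against 456, 682, 373 and 529 in WT. Mcm3 had 314, 317, 319 and 256 in KO, against 340, 556, 208 and 318 in WT. The groups overlapped for both genes, with log2 fold changes of 0.04 ± 0.21 and -0.16 ± 0.26 over 8 libraries (SE).

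Mcm5 had values of 374, 386, 331 and 264 in KO, against 411, 625, 239 and 315 in WT. Mcm6 had 1112, 975, 880 and 775 in KO, against 910, 1230, 627 and 713 in WT. Mcm7 had 738, 621, 579 and 422 in KO, against 539, 813, 390 and 482 in WT. KO libraries 3 and 4 were below KO libraries 1 and 2 for all 3 genes, and so were WT libraries 3 and 4 below WT libraries 1 and 2. With the label as a term, Mcm5 and Mcm6 passed as lower in libraries 3 and 4, and the within-set fold changes of KO over WT did not pass for any of the 3.

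Mcm4 had another order of libraries than the rest of its complex. Its values were 531, 531, 781 and 582 in KO, against 541, 631, 1037 and 967 in WT, with both KO libraries below both WT libraries in each set. It fell in KO in libraries 3 and 4 (log2 fold change -0.57 ± 0.15, adjusted p = 0.0342) and had -0.14 ± 0.13 in libraries 1 and 2 (0.483). Pcna had 1099, 933, 1447 and 1416 in KO, against 1079, 1463, 1788 and 1799 in WT. It fell in KO in libraries 3 and 4 (-0.33 ± 0.09, adjusted p = 0.04), and over 8 libraries it had -0.32 ± 0.2 (0.29, or 0.039 with the library set as a term). Its FDR in the authors' deposited table was 0.0237. The annotation holds 2 processed pseudogenes named after Pcna and 1 after Tyms, whose reads the counting could have split. Cdc6 had values from 83 to 132 in KO and from 46 to 228 in WT, and Cdc45 from 111 to 146 in KO and from 97 to 241 in WT, neither of them passing in any contrast of KO with WT.

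Deoxynucleotides come from thymidylate synthase, encoded by Tyms, and from ribonucleotide reductase, whose subunits are encoded by Rrm1 and Rrm2. Tyms had values of 309, 251, 309 and 257 in KO, against 296, 381, 200 and 215 in WT. Rrm1 had 1132, 1052, 1237 and 1127 in KO, against 1111, 1377, 1125 and 1010 in WT. Rrm2, whose subunit is the one regulated with S phase, ranged from 80 to 148 in KO and from 88 to 206 in WT and was among the genes that changed sides. None of the 3 passed, with within-set fold changes between 0.15 and 0.5 in libraries 3 and 4 and between -0.74 and -0.18 in libraries 1 and 2.

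At the step from G1 to S, Ccnd1 and E2f1 kept their sign in both sets and separated the labels without overlap over all 8 libraries, alone among the 39 genes. Ccnd1 (ENSMUSG00000070348, GRCm38 chromosome 7, 144929931 to 144939925, minus strand) had values of 3724, 4045, 3487 and 3919 in KO, against 3180, 3246, 2856 and 3015 in WT. All 4 KO libraries were above all 4 WT libraries, which was so for 13.6% of all genes tested. The means were 3794 ± 243 in KO and 3074 ± 175 in WT (SD, n = 4 each), with a log2 fold change of 0.30 ± 0.08 and an adjusted p of 0.0217. The Ccnd1 call ended without KO library 2 (adjusted p = 0.0576), KO library 4 (0.0615) or WT library 3 (0.0574). Exons of LTO1 on the opposite strand cover 23.4% of its exonic bases, and the strandedness of the counting is not given in the sources used here, so reads of the pair cannot be told apart.

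E2f1 encodes the E2F factor that drives replication genes, on GRCm38 chromosome 2, 154559407 to 154569892, minus strand. It lies outside the rule for genes given in full and was chosen after its values were seen, as were Ccnb1, Ube2c and Cenpa. Its values were 109, 114, 122 and 79 in KO, against 170, 288, 125 and 179 in WT. All 4 KO libraries were below all 4 WT libraries, which was so for 12.3% of all genes tested, with 122 and 125 the nearest values. Over 8 libraries the log2 fold change was -0.79 ± 0.26 and the adjusted p 0.0571, which missed the threshold; with the replicate number as a block it was 0.0487, and in the authors' deposited table the FDR was 0.0068. It had -0.6 ± 0.28 in libraries 3 and 4 (adjusted p = 0.161) and passed as lower in libraries 1 and 2 (-0.98 ± 0.28, 0.0478).

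Ccnd2, encoding cyclin D2, was the most abundant member per kilobase of exon, with means of 2520 per kb in KO and 2740 per kb in WT, ahead of Ccnd1 at 806 and 653. Its values were 23310, 25250, 20962 and 25350 in KO, against 31839, 27878, 21376 and 22044 in WT. WT libraries 1 and 2 were the highest and the rest overlapped, and the log2 fold change over 8 libraries was -0.10 ± 0.14 (adjusted p = 0.646). Within WT it fell in libraries 3 and 4 (-0.46 ± 0.12, adjusted p = 0.0306). Uhrf1, which helps to maintain DNA methylation behind the fork, ranged from 120 to 166 in KO and from 97 to 321 in WT and did not pass.

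Mitotic entry is driven by Cdk1 with cyclins A2, B1 and B2, by the kinases Plk1 and Aurora A, and by the transcription factor FOXM1. Ccnb1 (GRCm38 chromosome 13, 100778650 to 100786570, minus strand) had values of 94, 104, 184 and 151 in KO, against 213, 255, 102 and 75 in WT. KO libraries 3 and 4 were above KO libraries 1 and 2, and WT libraries 3 and 4 below WT libraries 1 and 2, with no overlap in either label. It rose in KO in libraries 3 and 4 (log2 fold change 0.92 ± 0.23, adjusted p = 0.0279) and fell in libraries 1 and 2 (-1.23 ± 0.2, 0.0098). Over 8 libraries these came to -0.15 ± 0.4. The annotation holds a processed pseudogene copy of Ccnb1, and also of Ccnb2.

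The other genes of mitotic entry had log2 fold changes between 0.1 and 0.94 in libraries 3 and 4 and between -1.21 and -0.54 in libraries 1 and 2. Ccna2, encoding cyclin A2, rose in KO in libraries 3 and 4, where its mean was 278 in KO and 144 in WT (0.94 ± 0.22, adjusted p = 0.0223). Cdk1 fell in libraries 1 and 2, with means of 133 in KO and 298 in WT (-1.11 ± 0.27, 0.0309), and so did Ccnb2, with means of 59 and 140.5 (-1.21 ± 0.28, 0.0253), and Aurka, with 94.5 and 181.5 (-0.92 ± 0.24, 0.039). Plk1 and Foxm1 did not pass in either set. Exosc9 on the opposite strand covers 12.5% of the exonic bases of Ccna2.

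Chromosome and checkpoint genes included the 2 largest falls of set 1 and 2, those of Cenpa and Bub1. Top2a, the topoisomerase that untangles replicated DNA (GRCm38 chromosome 11, 98992943 to 99024189, minus strand), had values of 723, 691, 930 and 684 in KO, against 1199, 1975, 492 and 596 in WT. The KO values were close together except for KO library 3, and the WT values of set 1 and 2 lay above all of them. It had a log2 fold change of 0.56 ± 0.17 in libraries 3 and 4 (adjusted p = 0.0546) and fell in KO in libraries 1 and 2 (-1.12 ± 0.22, 0.0165). Cenpa, encoding the histone variant of the centromere, had 18, 30, 51 and 57 in KO, against 89, 90, 39 and 34 in WT. It was the least abundant member per kilobase, with a log2 fold change of 0.55 ± 0.3 in libraries 3 and 4 (adjusted p = 0.22) and the largest fall of libraries 1 and 2 (-1.9 ± 0.36, 0.0151).

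Cenpe, a kinesin that links chromosomes to microtubules, passed in both sets, as higher in libraries 3 and 4 with means of 152.5 in KO and 86 in WT (0.81 ± 0.24, adjusted p = 0.0478) and as lower in libraries 1 and 2 with means of 115.5 in KO and 218 in WT (-0.9 ± 0.26, 0.05 after rounding and under the threshold). Cenpf rose in libraries 3 and 4 (0.96 ± 0.25, 0.0335). The checkpoint kinases Bub1 and Bub1b fell in libraries 1 and 2 (-1.3 ± 0.38 and -1.07 ± 0.29, adjusted p = 0.0499 and 0.042). Birc5, encoding survivin of the chromosomal passenger complex, ranged from 40 to 99 in KO and from 32 to 117 in WT and did not pass.

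All 6 spindle and cytokinesis genes had a log2 fold change above 0 in libraries 3 and 4, from 0.53 to 0.96, where 52.3% of all genes did. In libraries 1 and 2 all 6 had an unadjusted p under 0.05 as lower, where 18.8% of all genes did. After adjustment 3 passed as higher in libraries 3 and 4 (background 11.4%), against 0 as lower in libraries 1 and 2 (10.8%). With the spread pooled over 8 libraries these counts were 2 (background 9.68%) and 3 (13.6%). Prc1, which bundles microtubules at the midzone, had values of 233, 271, 466 and 379 in KO, against 346, 518, 234 and 296 in WT. It rose in libraries 3 and 4 (0.67 ± 0.17, adjusted p = 0.0309) and had -0.75 ± 0.22 in libraries 1 and 2 (0.0527). Kif11, the motor that pushes the poles apart, had means of 232.5 in KO and 126.5 in WT in libraries 3 and 4 (0.87 ± 0.18, 0.0147). Tpx2, an activator of Aurora A, had means of 268 and 138.5 there (0.96 ± 0.21, 0.0187). The kinesins of cytokinesis Kif20a and Kif23 and the microtubule binder Nusap1 had log2 fold changes from 0.53 to 0.64 in libraries 3 and 4 and from -0.82 to -0.73 in libraries 1 and 2, and none of these passed. Cdc23 on the opposite strand covers 29.3% of the exonic bases of Kif20a, and Rccd1 11.1% of those of Prc1.

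The anaphase-promoting complex ends mitosis with Cdc20 as its activator and Ube2c as its ubiquitin-conjugating enzyme. Ube2c (GRCm38 chromosome 2, 164769898 to 164778822, plus strand) had values of 51, 72, 122 and 89 in KO, against 106, 137, 39 and 45 in WT. Both KO libraries of set 3 and 4 were above both WT libraries, and both of set 1 and 2 below. It had the largest rise of the 39 genes in libraries 3 and 4 (1.29 ± 0.27, adjusted p = 0.0163), and -0.98 ± 0.29 in libraries 1 and 2 (0.0537). Tnnc2 on the opposite strand covers 22.8% of its exonic bases. Cdc20 had the same order of libraries in each set, with 0.3 ± 0.2 and -0.58 ± 0.29, and passed in neither.

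Mki67 encodes Ki-67, the nuclear antigen by which dividing cells are stained (GRCm38 chromosome 7, 135689784 to 135716361, minus strand). Its values were 1139, 1319, 1931 and 1250 in KO, against 1478, 2822, 822 and 958 in WT. WT held both the highest and the lowest values, and KO lay between 1139 and 1931. It rose in KO in libraries 3 and 4 (0.81 ± 0.2, adjusted p = 0.0257) and had -0.74 ± 0.28 in libraries 1 and 2 (0.102), and over 8 libraries 0.04 ± 0.36 (0.959).

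The motifs shown above ran with the opposition between the sets. Of 18 members with both CHR and CCAAT, 13 changed sides without overlap (72.2%), against 4 of 14 members with a window that lacked either (28.6%). The median difference of the within-set fold changes was 1.51 with both motifs and 0.67 without. Of genes outside every cell cycle list, 2.55% of 548 with both motifs changed sides, against 3.14% of 9842 without. Mitotic role and these motifs go together in the list and cannot be told apart here.

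Further cell cycle genes were read from lists of the same pathway. Of 49 other mitotic genes, among them kinetochore, condensin and kinesin genes, 0 passed over 8 libraries, while 4 passed as higher in libraries 3 and 4 (8.16%, background 11.4%) and 8 as lower in libraries 1 and 2 (16.3%, background 10.8%). Their median difference was 1.2, 25 changed sides without overlap (51.0%, background 3.46%) and WT library 2 was highest for 40 (81.6%, background 13.4%). Spc25 and Bub3 were the most abundant of them. Spc25, a kinetochore subunit, had 2152, 2499, 3324 and 2895 in KO, against 3163, 2889, 2444 and 2561 in WT, and passed as lower in libraries 1 and 2 (-0.38, adjusted p = 0.048). Bub3, a checkpoint protein, had a log2 fold change of -0.05 ± 0.1 over 8 libraries and did not pass in either set. Of 39 other replication genes, 0 passed over 8 libraries, and the most abundant, Rpa1 and Orc3, had -0.24 ± 0.12 and -0.03 ± 0.08. Their median difference was 0.41, 8 changed sides without overlap (20.5%, background 3.46%) and WT library 2 was highest for 24 (61.5%, background 13.4%).

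Over all 148 further genes of these lists, 4 passed as higher over 8 libraries (2.7%) and 5 as lower (3.38%), below the background of 11.1% and 9.81%, and the genes named next are single cases among them. Of 8 measured CDK inhibitors and pocket proteins, Cdkn1a alone passed, as higher. Cdkn1a encodes p21, which restrains cyclin-dependent kinases. Its values were 1655, 1346, 2088 and 2408 in KO, against 207, 252, 1037 and 827 in WT, all 4 KO libraries above all 4 WT libraries. The log2 fold change was 1.99 ± 0.51 over 8 libraries (limma-trend, adjusted p = 0.0236). Cdkn1a also passed as higher within each set, with 1.27 in libraries 3 and 4 (0.00155) and 2.7 in libraries 1 and 2 (0.0014). The difference between the sets was -1.43 (adjusted p = 0.0662). The call over 8 libraries ended without KO library 1 (0.0527), KO library 3 (0.0582), KO library 4 (0.0649) or WT library 2 (0.0608). Cdkn2a, Cdkn2d and Cdkn3 were not analysed here.

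Of 18 other cyclin and kinase genes, 0 passed as higher and 2 as lower. Cdk4, the kinase partner of the D cyclins, had values of 2904, 2934, 2837 and 2562 in KO, against 3526, 3787, 3854 and 3516 in WT, with no overlap (-0.39 ± 0.07, adjusted p = 0.00629). Cks1b, a small subunit of cyclin-dependent kinases, had 140, 226, 199 and 190 in KO, against 348, 335, 245 and 254 in WT (-0.65 ± 0.18, 0.0361). Its call ended without KO library 1, 3 or 4 or WT library 1 or 2, with adjusted p from 0.0651 to 0.097. Of 15 E2F, DREAM and MYB-MuvB factors, 1 passed, E2f3, which rose with means of 251 ± 33.4 in KO and 170.5 ± 27 in WT (SD, n = 4 each; 0.56 ± 0.15, adjusted p = 0.0311). That call held only with WT library 2 or KO library 3 as the library left out, and ended with each of the other 6 left out (0.0537 to 0.082).

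Of 19 regulators of beta cell proliferation, 2 passed as higher (10.5%) and 3 as lower (15.8%), near the background of 11.1% and 9.81%. Egfr, the epidermal growth factor receptor, had values of 633, 598, 812 and 653 in KO, against 2288, 1970, 2118 and 1684 in WT (-1.58 ± 0.13, adjusted p = 1.17e-04). Prlr, the prolactin receptor, had means of 16014.5 ± 1353.2 in KO and 28736.5 ± 6107.8 in WT (SD, n = 4 each; -0.82 ± 0.16, 0.00691). Met, the receptor of hepatocyte growth factor, had 2475.2 ± 363.7 in KO and 1580 ± 159.3 in WT (0.64 ± 0.12, 0.00539). Mycn rose with 1.41 ± 0.41 (0.0388), a call that ended with any library but WT library 4 left out (0.0533 to 0.0962). The remaining lower gene was Nfatc2, named after its values were seen.

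Markers of other cells of the islet also passed the test, and their part in the results was not tested. The background over all genes is 11.1% higher and 9.81% lower over 8 libraries, 11.4% either way in libraries 3 and 4, and 12.2% higher and 10.8% lower in libraries 1 and 2. All 8 beta cell markers were measured and 5 passed as lower (62.5%), with sums from 2484560 to 3417383 in KO and from 5263416 to 5902332 in WT. Of 6 alpha cell markers 5 passed as higher (83.3%), with sums from 1922168 to 2624167 in KO and from 414290 to 1052301 in WT. All 5 delta and PP cell markers passed as higher, with sums from 276984 to 390877 in KO and from 103548 to 170306 in WT. In bulk RNA, fewer cells of a type and less RNA per cell cannot be told apart, here or for the cell cycle genes. Of 10 endothelial markers, 5 passed as higher in KO in libraries 3 and 4 and 0 in libraries 1 and 2, with sums of 15449, 15720, 21951 and 24256 in KO, against 14323, 17300, 16824 and 17998 in WT, and 4 of the 10 changed sides without overlap, where 3.46% of all genes did. Of 10 stellate cell and fibroblast markers, 9 passed as higher in libraries 3 and 4 and 4 as higher in libraries 1 and 2, with sums of 15989, 17235, 26649 and 27268 in KO, against 9093, 14539, 10883 and 14805 in WT. Of 10 ductal markers, 2 passed as higher and 1 as lower in libraries 3 and 4 and 5 as higher in libraries 1 and 2, with sums from 24122 to 46924 in KO and from 15234 to 28557 in WT. Of 6 measured Schwann cell markers, 4 passed as higher in libraries 3 and 4 and 0 in libraries 1 and 2, with sums from 489 to 1066 in KO and from 345 to 629 in WT. None of the beta cell, endothelial or stellate markers was at 0 in any library.

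Few lymphocyte markers were measured. Of 11 T and NK cell markers, only Cd4 and Lck were measured, summing to between 94 and 165 in KO and between 40 and 226 in WT, with the least in WT library 2. Of 6 B cell markers, 4 were measured, and they summed to between 106 and 299 in KO and between 206 and 664 in WT, highest in WT library 1. Of 10 measured macrophage markers, 1 passed as higher in each set, with sums from 3016 to 3876 in KO and from 1912 to 4090 in WT. The 12 measured acinar markers summed to between 141796 and 416582 in KO and between 23546 and 269526 in WT, lowest in WT library 2, and 1 passed as higher in libraries 3 and 4 and 10 in libraries 1 and 2. The 16 immediate early genes gave 0 higher and 11 lower in KO in libraries 3 and 4 and 7 higher and 0 lower in libraries 1 and 2, where the mitotic genes had log2 fold changes of the opposite sign.

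**Figure D5:**
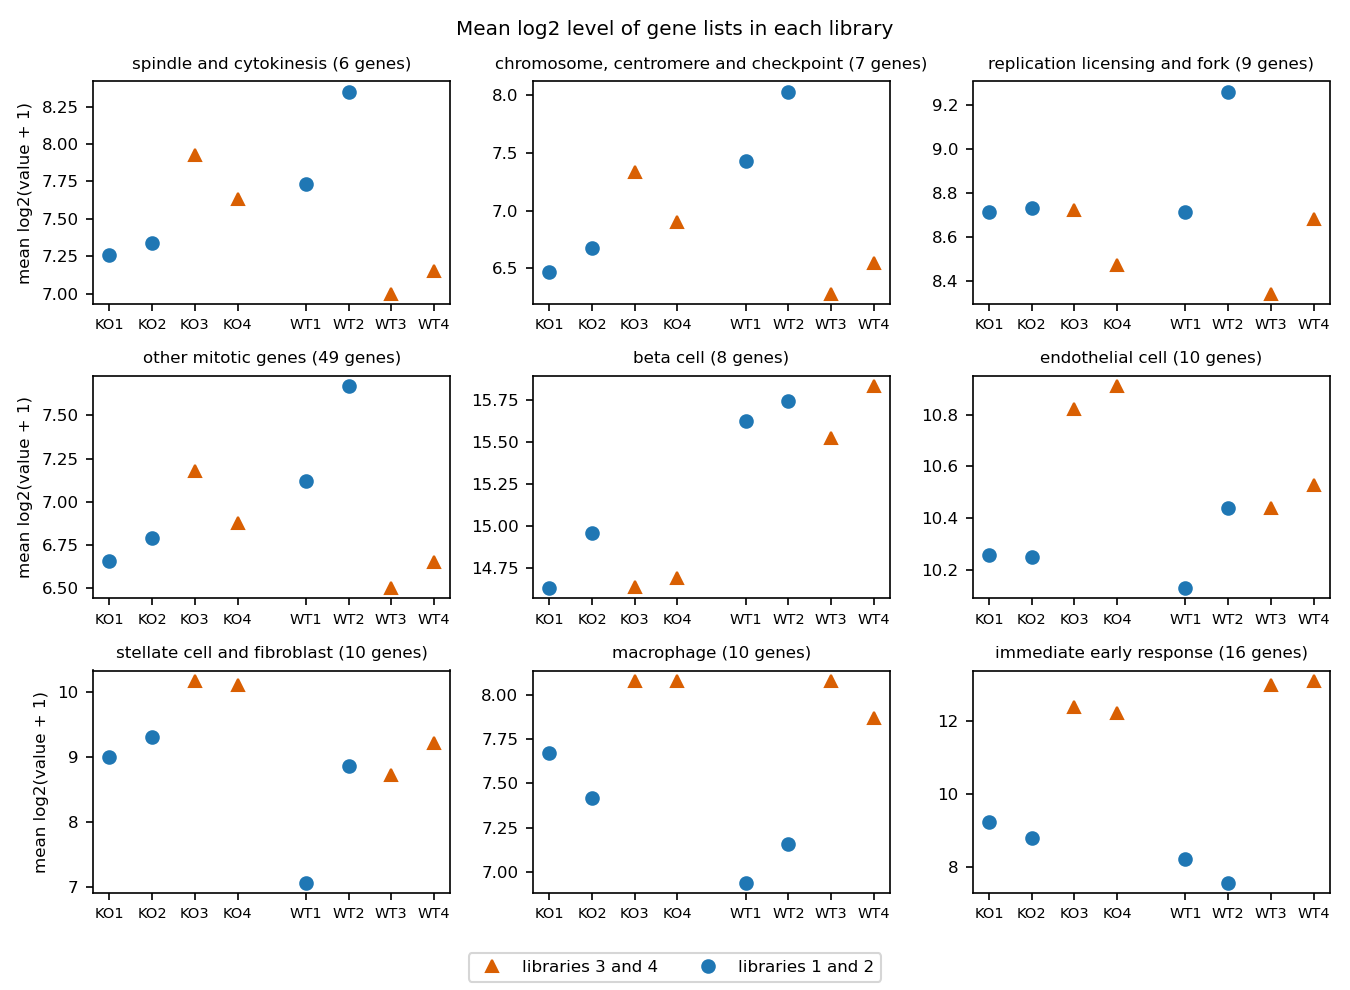
Mean log2(value + 1) over the measured genes of 9 lists in each library, KO left and WT right, with circles for libraries 1 and 2 and triangles for libraries 3 and 4; each panel has its own axis, which does not start at 0. The mitotic lists are highest in WT library 2 and lowest in WT library 3, beta cell markers are lower in all 4 KO libraries, and endothelial and stellate markers are highest in KO libraries 3 and 4.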

How the data were processed

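The deposited table gives 1 row per gene. The submitters' processing notes name the aligner STAR 2.5.3a, the quantifier RSEM 1.2.31, bcl2fastq 2.20, edgeR 3.16.15 and the build GRCm38.p5, without settings or strandedness. The per-library columns deposited by the authors are a score: normalized counts rounded to whole numbers, with median of ratios factors from 0.994 to 1.008, so no count test was run. The authors' deposited table also holds their log2 fold change, log2 CPM, a likelihood ratio score, a p-value and an FDR per gene. Depth is unknown, since low whole numbers were nearly all in use. Of the whole numbers under 60, 4 were unused in WT library 3 and 7 in WT library 4, against 0 in every other library. What left these gaps was not tested. Precision rests on 4 libraries per group, taken as separate mice from the design text.

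limma-trend (limma 3.58.1, R 4.3.3) was fitted on log2(value + 1) to the 14121 genes at 1 or above in 4 or more libraries, two-sided, with Benjamini-Hochberg adjustment over all of them and a threshold of 0.05. KO was set against WT over 8 libraries and within libraries 1 and 2 and libraries 3 and 4, and the difference was an interaction term. The script was tested on simulated data. The genes and lists were chosen with earlier results of these data known. All members are named; per-library values are given for Ccnd1 and the members of highest mean value, 14 in all, with additions stated. Gene positions and overlaps are from GENCODE M21 (GRCm38), and promoter windows from RefSeq (GRCm38.p6).

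Replicate numbers 1 to 4 occur in the titles of both groups. After subtraction of each group's mean, KO and WT libraries of one number correlated across 13080 genes (not independent replicates) with r of 0.329, 0.585, 0.666 and 0.383. All exceed 0.1, though differently numbered libraries of a set correlated too (0.435 to 0.519). Numbers 2 and 3 lay above that range and numbers 1 and 4 below it, so pairing by number is not shown. The main fit over 8 libraries had genotype alone, and the replicate number as a block was a further setting.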

Additional observations from a re-analysis of the deposited data

Results flagged for a closer look

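In 6 of 78 groups of 4 libraries, 1 library lay far from the other 3 by Dixon's test; chance flags about 1 in 20 groups. KO libraries were singled out 4 times. Cdc45 was lowest in KO library 1 (111, the others 144 to 146), Mcm3 lowest in KO library 4 (256, the others 314 to 319), Birc5 highest in KO library 3 (99, the others 40 to 46) and Top2a highest in KO library 3 (930, the others 684 to 723). WT library 2 was singled out as highest for Uhrf1 (321, the others 97 to 131) and Foxm1 (205, the others 111 to 121). WT library 2 held the highest of 8 values for 35 of the 39 genes. What marks WT library 2 in the tissue was not tested.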

How the results depend on the processing

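Sequencing depth is unknown, 2 libraries per label in each set limit the within-set tests, and the sets coincide with whatever the replicate numbers mark. Without 1 library in turn, 1121 to 1684 genes were higher and 863 to 1597 lower over 8 libraries, with 0 to 1 member higher, 0 to 1 lower, 1 to 4 pathway genes higher and 3 to 8 lower. The lone library of a label is there assumed to vary like the others: libraries 3 and 4 then gave 1 to 1061 genes higher, 0 to 800 lower, 0 to 2 members higher and 0 lower, and libraries 1 and 2 gave 0 to 111 genes higher, 0 to 78 lower and 0 members either way. The member medians kept their sign in these fits, from 0.33 to 0.67 in libraries 3 and 4 and from -1.04 to -0.42 in libraries 1 and 2. The interaction gave 0 to 23 genes positive, 1 to 123 negative, 0 to 3 members positive and 0 negative, and libraries 3 and 4 against 1 and 2 gave 891 to 1261 genes higher, 433 to 776 lower, 1 to 2 members higher and 0 to 3 lower. With the replicate block, E2f1 passed as 1 member lower (adjusted p = 0.0487), the interaction gave 6 genes negative, and no other member's call over 8 libraries changed. With the library set as a term, 2400 genes were higher and 2102 lower, 2 members lower (E2f1 and Pcna, adjusted p = 0.0242 and 0.039), and 10 pathway genes higher and 8 lower. Quantile normalization gave 1 member lower over 8 libraries, 1 lower in libraries 3 and 4, 1 higher and 21 lower in libraries 1 and 2, 8 genes negative in the interaction and 4 members lower between sets. Totals without hormone and mitochondrial genes gave 1 member lower in libraries 3 and 4, 1 higher in libraries 1 and 2, 2 genes and 1 member (Ccnb1, adjusted p = 0.0457) positive in the interaction, and 1324 genes and 4 members lower between sets. Array weights gave 1 member and 9 pathway genes lower, and 4 members lower between sets; a pseudocount of 0.1 gave 2 genes positive in the interaction. The authors' deposited table gave 2 members lower and 7 pathway genes higher. Chosen after seeing the data, the pooled spread gave 1 member lower in libraries 3 and 4, and leaving out replicate number 2 of both labels gave 819 genes higher, 642 lower, 0 members higher, 1 pathway gene higher and 3 lower. Of 741 single-gene values over 8 libraries and 624 of the interaction, 729 and 619 kept their side of the threshold. No called value reversed, but in the main fits only Ccnd1 was called over 8 libraries and no member in the interaction. Among values not called, 87 over 8 libraries and 9 of the interaction changed sign. The causes were not tested.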
